A study of Mus musculus with 13 samples.

Results

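Fibroblast growth factor (FGF) genes were examined through the accessible regions around them. The set held 34 mouse genes, of which 20 encode ligands or their intracellular homologues, 5 encode receptors, 7 encode inhibitors of the pathway and 2 encode ETS transcription factors induced by it. A region counted for a gene when its strongest summit lay within 50 kb of the gene body, and went to the nearest gene of the set. By this rule 6203 of 1360329 regions in 13 libraries were taken. Of these, 1610 came from a single annotated transcript that extends the GENCODE body of Fgfr2 to 2960.9 kb across many other genes, against 104.4 kb in RefSeq. Fgfr2 was therefore given its RefSeq body, which left 4593 regions, and the far stretch was counted apart.

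ATAC-seq, in which the Tn5 transposase inserts adapters into open chromatin, was carried out by the authors on 50000 cells per library, from mouse embryos of stage E12.5. The tissues were forebrain (FB) and the distal (DFL) and proximal (PFL) parts of the forelimb, taken from wild-type (wt) embryos and from embryos homozygous for allele 542, all of B6CBAF1 background. Allele 542 carries the HoxD enhancer II1, active in distal limb cells, as an extra copy with an HBB promoter and a LacZ reporter, placed in the domain on the other side of the Hoxd genes. The 6 groups each held 2 replicates, every one a pool of tissue from several embryos, and the labels give the same stage and background for both genotypes. Another library of wt DFL, tied by the labels to an earlier sample analysed anew, belonged to no group. Since a library mixes all cells of a piece of tissue, fewer cells of a type and less accessibility per cell cannot be told apart.

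FGF ligands bind receptor tyrosine kinases together with heparan sulphate or, for endocrine ligands, Klotho proteins, and activate the RAS-ERK cascade. ERK signalling induces Etv4, Etv5 and genes of the Sprouty, Spred and Dusp families, which dampen the same cascade. In the limb bud, Fgf10 from the mesenchyme acts on Fgfr2 in the ectoderm, while Fgf4, Fgf8, Fgf9 and Fgf17 are made by the apical ridge. In the forebrain, Fgf8, Fgf15, Fgf17 and Fgf18 act from the anterior midline.

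Depth, estimated from the peak statistics, was 37.5 to 70.7 M tags per grouped library, and 85104 to 118339 regions were deposited for each. So that lists had equal length, the 50000 strongest regions of each library were compared and then joined into 110782 consensus regions. Of these, 356 belonged to 33 of the 34 genes, and none to Fgf4, whose neighbours Fgf3 and Fgf15 were nearer to every region. As a check of the tissues, the start of Hoxa13, a distal limb gene, was called in all 4 DFL libraries with a mean fold of 9.29, in all 4 PFL libraries with 5.51 and in 1 FB library with 2.80. Of the ridge and ectoderm markers, the starts of Krt14 and Sp8 were called in no library, and those of Krt5 and Trp63 in 1 and 2 PFL libraries. The start of the forebrain marker Pax6 was called in all 12 with mean folds of 6.39 in DFL, 4.43 in PFL and 8.38 in FB.

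For DFL, PFL and limb, the strongest FGF region of each pattern that lay outside exons and starts is shown first, as the 300 bases around its summit in mm10, plus strand. Capitals mark 1 of 5 short motifs searched on either strand, namely CAATAAA or TCGTAAA (HOX13), TAATTA (homeodomain), CTTTGAT (TCF/LEF), CCGGAAG (ETS) and CAGATG (neural bHLH). The Fgf12 stretch, chr16:28197982-28198281, lies in an intron of Fgf12 and was among the 50000 strongest regions of the DFL libraries alone. The Fgf5 stretch, chr5:98283749-98284048, is intergenic and was among the 50000 strongest of the PFL libraries alone. Both had calls of lower rank in other tissues. The Fgf23 stretch, chr6:127050882-127051181, is intergenic and had deposited calls in limb alone.
Fgf12, DFL: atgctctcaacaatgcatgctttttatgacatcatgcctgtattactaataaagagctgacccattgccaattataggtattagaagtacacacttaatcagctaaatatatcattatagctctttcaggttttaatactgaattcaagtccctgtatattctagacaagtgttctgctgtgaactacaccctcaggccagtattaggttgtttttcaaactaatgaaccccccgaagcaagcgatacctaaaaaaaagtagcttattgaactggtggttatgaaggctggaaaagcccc
Fgf5, PFL: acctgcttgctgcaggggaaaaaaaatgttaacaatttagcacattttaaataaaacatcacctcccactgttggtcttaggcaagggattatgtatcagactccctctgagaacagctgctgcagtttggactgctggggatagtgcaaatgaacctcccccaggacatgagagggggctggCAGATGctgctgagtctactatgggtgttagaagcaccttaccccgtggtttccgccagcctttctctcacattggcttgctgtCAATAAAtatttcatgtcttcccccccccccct
Fgf23, limb: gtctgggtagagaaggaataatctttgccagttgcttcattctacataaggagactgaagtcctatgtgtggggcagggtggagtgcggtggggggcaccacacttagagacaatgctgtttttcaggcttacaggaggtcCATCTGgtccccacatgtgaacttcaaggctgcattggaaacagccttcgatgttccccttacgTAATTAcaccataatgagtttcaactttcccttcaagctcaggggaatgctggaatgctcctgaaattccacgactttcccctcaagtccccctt
The Fgf12 stretch held none of these letters, the Fgf5 stretch held a bHLH and a HOX13 match, and the Fgf23 stretch held a bHLH match on the minus strand and a homeodomain match.

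FGF genes held more accessible regions in limb than in forebrain. Among the 50000 strongest, the 4 FB libraries held 169, 171, 167 and 174 FGF regions, the DFL libraries 199, 203, 194 and 206, and the PFL libraries 216, 205, 217 and 212. Limb and forebrain did not overlap, with means of 206.5 and 170.2 (two-sided exact permutation test, p = 0.00404). Totals of other gene sets are not given. DFL and PFL differed by 12.0 regions on average (exact permutation test, p = 0.0571). Over the 3 tissues together, 542 held 195.0 ± 20.6 regions and wt 193.8 ± 19.3 (SD, n = 6 each, exact permutation test, p = 0.913). That test shuffled libraries across tissues. Its SD and p therefore take in the gap between limb and FB and do not compare the genotypes within a tissue. When every deposited region was counted instead, the limb and FB means were 365.9 and 302.5 (exact permutation test, p = 0.00808). Limb and FB totals then overlapped, with 319 in 542 PFL replicate 2 and 326 in wt FB replicate 1. By genotype, wt libraries held 368.8 on average and 542 libraries 320.7 (exact permutation test, again across tissues, p = 0.0498). Depth and number of regions moved in the same direction, and their part in it was not tested. The map of regions by gene and library shows Fgf12, Fgf1 and Fgf10 with the most regions in a library and Fgf4 with none.

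**Figure D1:**
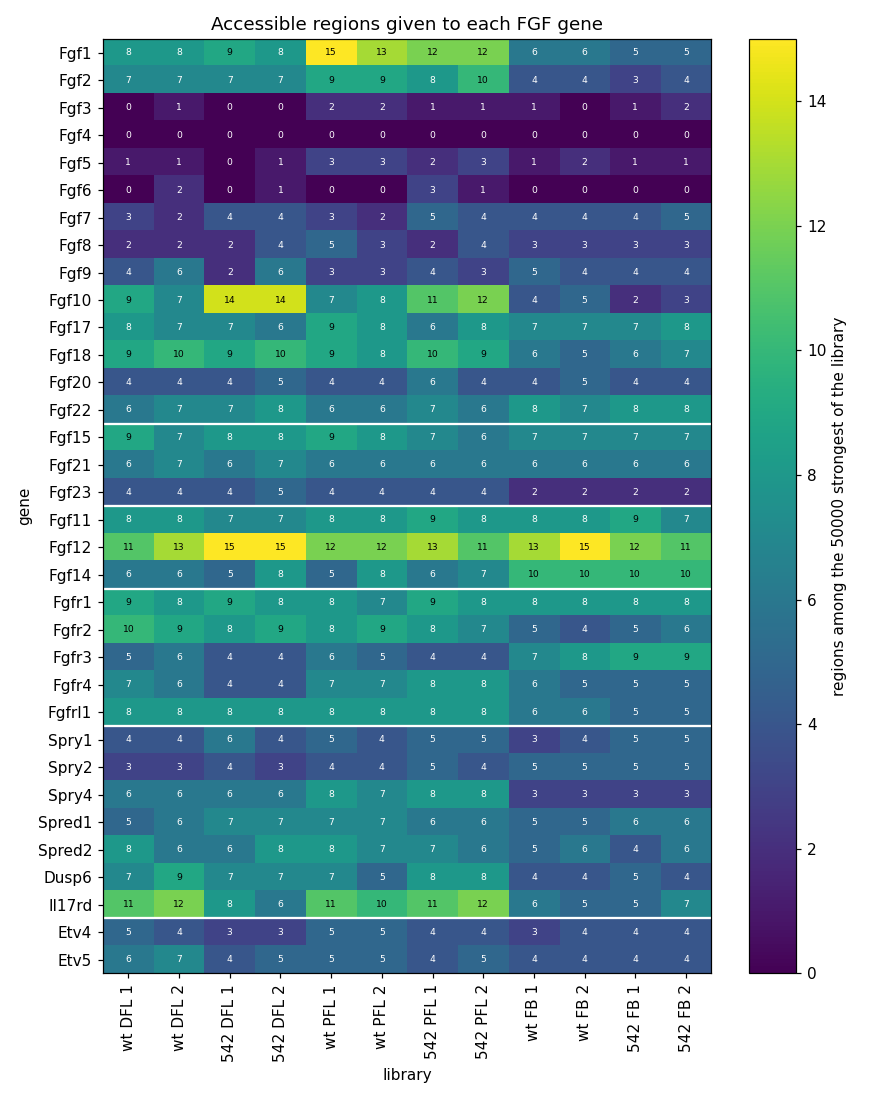
Number of regions given to each FGF gene (rows, grouped by role with white lines) among the 50000 strongest of each of 12 libraries (columns), with the count in each cell and as colour. Fgf10, Fgfr2, Fgf23 and Spry4 have higher counts in the 8 limb libraries than in the 4 FB libraries, and Fgfr3 and Fgf14 have higher counts in FB.

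Of the 356 FGF regions, 94 (26.4%) were among the 50000 strongest in all 12 libraries, against 17.4% of all consensus regions. In limb alone, in all 8 limb libraries and no FB library, were 24 (6.74%, against 4.82% of all). In FB alone were 17 (4.78%, against 8.77% of all). Between the limb parts, 6 regions were held by every DFL library and by none of PFL (1.69%, against 2.54% of all) and 7 by every PFL library and by none of DFL (1.97%, against 2.02%). When FB had to be without a call as well, 3 remained for DFL (0.843%, against 1.92%) and 7 for PFL (1.97%, against 1.81%). The DFL and PFL shares thus lay near or under the background. With 1 replicate number alone the DFL and PFL counts were 14 to 15 and 17 to 24, since fewer libraries had to hold or lack a call. Shares over all regions are not given for these. In the far stretch of Fgfr2, left out above, 4 of 128 regions were in limb alone, 14 in FB alone, 4 in DFL and not PFL, 4 in PFL and not DFL, and 20 in all libraries.

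**Figure D2:**
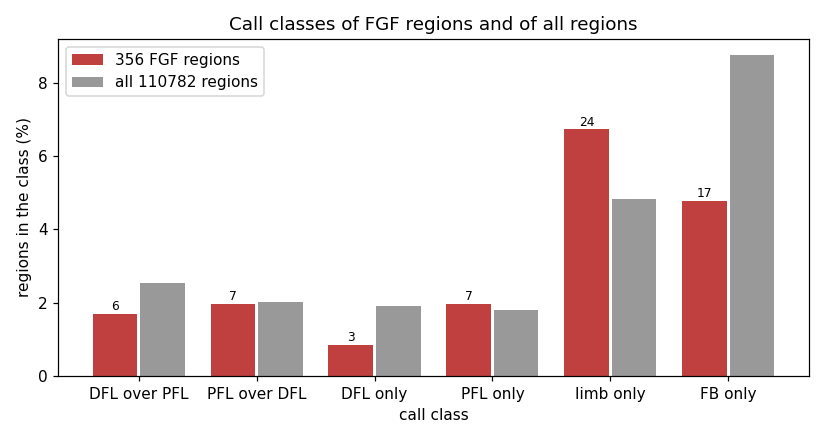
Share of the 356 FGF regions (red) and of all 110782 consensus regions (grey) in each call class, in percent, with the number of FGF regions above each red bar. The limb-only share is 6.74% against 4.82%, and the FB-only share 4.78% against 8.77%.

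A region outside the 50000 strongest may still be deposited at a lower rank. Of the 24 limb-only regions, 18 had no deposited call at all in any FB library. Of the 17 FB-only regions, 6 had none in any limb library. Of the 6 DFL regions, 2 had none in any PFL library, and of the 7 PFL regions 1 had none in any DFL library. The earlier wt DFL library, which took no part in these calls, held 24 of the 24 limb-only regions, 4 of the 6 DFL regions, 0 of the 7 PFL regions and 1 of the 17 FB-only regions among its 50000 strongest. These counts were made for FGF regions only, without the shares over all regions of the classes. A limb-only call needs absence from 4 FB libraries and an FB-only call absence from 8 limb libraries, so the classes are not compared.

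Among secreted ligands, 14 genes held 137 regions, of which 8 were limb-only and 4 FB-only (against 4.82% and 8.77% of all regions). The counts by role, here and below, are small and are not read as traits of a role. Fgf10, the mesenchymal ligand that starts limb outgrowth, had 27 regions, the most of any gene, and 3 of them were limb-only. They lay 62.3 kb, 122.6 kb and 155.5 kb from its start along the gene, the first in an intron and the others with summits beyond the gene end. The last had folds of 6.59 to 13.45 over the 8 limb libraries, with a median of 10.04, and no deposited call in FB. Another Fgf10 region, 31.9 kb upstream at chr13:118637579-118638131, had folds of 6.45 and 5.95 in wt DFL and 5.35 and 7.74 in 542 DFL. It had no deposited call in any PFL or FB library, nor was it in the earlier wt DFL library's 50000 strongest.

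Fgf2, a ligand without a signal peptide, held 3 limb-only regions in its introns, 5.7, 35.0 and 54.0 kb from the start. The strongest, chr3:37382961-37383942, had folds of 8.16 to 12.12 in limb with a median of 10.98. None of the 3 had a deposited call in FB. Fgf18, which acts in skeletal growth, had 2 limb-only regions with median folds of 9.70 and 8.23, and the first of them was deposited at a lower rank in 2 FB libraries.

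Fgf5, a hair-cycle ligand, held the strongest PFL region, printed above, with folds of 5.62 and 5.93 in wt PFL and 9.30 and 8.79 in 542 PFL. It was deposited at lower rank in 3 DFL and 4 FB libraries, so that its PFL call is one of rank. Fgf7, a mesenchymal ligand for epithelial receptors, had a region 18.7 kb upstream, in an intron of Fam227b, with folds of 6.15, 5.78, 6.08 and 6.21 in the DFL libraries and 11.74, 12.84, 11.52 and 12.78 in the FB libraries. No PFL library held it among its 50000 strongest, and 1 had it at a lower rank.

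Fgf8, the ridge and forebrain midline ligand, had 5 regions, of which 1 was FB-only. It lay 25.2 kb from the start, beyond the gene end, at chr19:45717472-45718418, with folds of 10.66 and 9.79 in wt FB and 6.84 and 11.41 in 542 FB. It was deposited at a lower rank in 3 DFL and 2 PFL libraries. The other class regions of secreted ligands were those of Fgf17 and Fgf22 over starts of other genes in FB, Fgf18 in FB, Fgf1 and Fgf2 in PFL.

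Among the endocrine ligands, Fgf23, which regulates phosphate and vitamin D, had 2 limb-only regions. That over its start, chr6:127072633-127073244, had folds of 14.65 and 23.17 in wt DFL, 21.93 and 20.59 in 542 DFL, 19.62 and 15.83 in wt PFL, and 18.21 and 16.18 in 542 PFL. No FB library had a call over the start itself, although 3 had a deposited call that overlapped the consensus region. The intergenic Fgf23 region shown above lay 21.9 kb upstream and had limb folds of 10.76 to 14.92 with no deposited call in FB. Fgf15 and Fgf21 had no tissue class region, and 8 of the 22 regions of the 3 endocrine ligands lay over starts of other genes.

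The intracellular homologues Fgf11, Fgf12 and Fgf14 act on sodium channels and neurons and are not secreted. They held 45 regions with 1 limb-only and 5 FB-only (against 4.82% and 8.77% of all regions). The 3 FB-only regions of Fgf14 had mean folds of 9.89 ± 0.68, 7.71 ± 0.52 and 7.44 ± 0.31 (SD, n = 4). Fgf12 held the strongest DFL region of the set, in an intron 554.9 kb from the start, with folds of 11.01 and 11.53 in wt DFL and 9.60 and 11.11 in 542 DFL. It was deposited at a lower rank in 3 PFL libraries and in no FB library.

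Among receptors, 7 of 57 regions were limb-only and 3 were FB-only (against 4.82% and 8.77% of all regions). Fgfr2, whose splice forms receive mesenchymal or epithelial ligands, held 4 limb-only regions at 76.7, 82.7, 84.0 and 105.1 kb from its start, with median limb folds of 6.99, 8.80, 5.12 and 7.64 and no deposited call in FB. Fgfr3, a receptor of neural progenitors and cartilage, held the 3 FB-only regions, at 16.2, 23.4 and 32.0 kb upstream. Their mean FB folds were 5.98 ± 0.70, 4.93 ± 0.11 and 7.48 ± 0.92 (SD, n = 4), and the last had no deposited call in limb. A limb-only region lay between them, 29.1 kb upstream of Fgfr3, with limb folds of 7.01 to 8.34. Fgfrl1, a receptor without a kinase domain, held 2 limb-only regions, with median folds of 8.70 and 8.51.

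**Figure D3:**
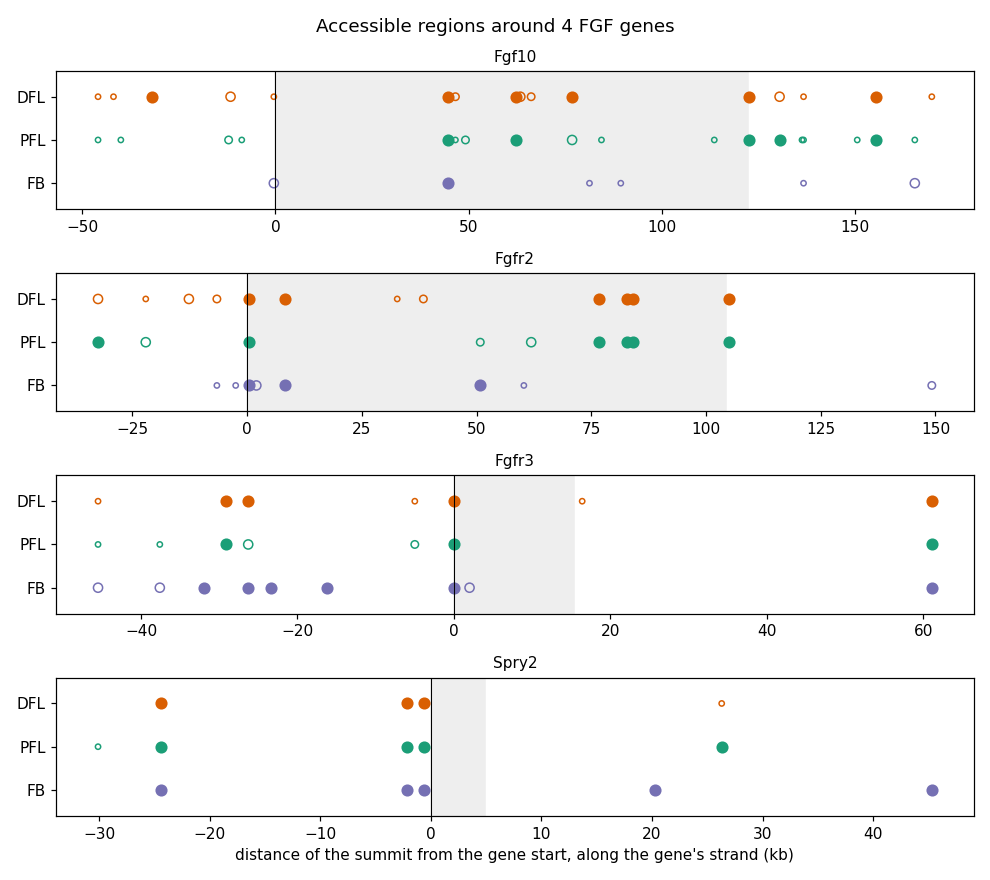
Regions among the 50000 strongest around Fgf10, Fgfr2, Fgfr3 and Spry2, by distance of the summit from the gene start in kb (grey, gene body), with 1 line per tissue. Filled circles stand for calls in all 4 libraries of the tissue and open circles, smaller for fewer libraries, for calls in 1 to 3. Fgfr2 has 4 filled limb regions without an FB call from 76.7 to 105.1 kb, and Spry2 has FB-only regions at 20.3 and 45.3 kb.

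Among the feedback inhibitors, 81 regions held 5 limb-only and 5 FB-only ones (against 4.82% and 8.77% of all regions). Spry2, an inhibitor of receptor tyrosine kinase signalling, held the strongest FB-only region, 45.3 kb from its start. Its folds were 14.96 and 15.48 in wt FB and 17.22 and 17.35 in 542 FB, and 1 DFL and 1 PFL library had it at a lower rank. A further Spry2 region 20.3 kb from the start had FB folds of 7.58, 8.48, 8.12 and 6.96. Spry4 held a limb-only region 17.2 kb from its start with folds of 8.49 to 13.94. Spred2, Dusp6 and Il17rd held 1, 1 and 2 limb-only regions, and Spred1, Spred2 and Il17rd 1 FB-only region each. Of the ETS factors, Etv5 held 1 limb-only region 98.2 kb from its start, with folds of 5.19 to 13.41, and Etv4 held none.

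Over the annotated starts, the share of FGF genes called in every library was near that of all coding genes, and the share called in none was smaller. The starts of 21 of the 34 genes were called in all 12 libraries and those of 5 (Fgf6, Fgf11, Fgf17, Fgf21 and Spry2) in none, against 58.3% and 30.4% of 21911 coding genes. Fgf14, in contrast, had a start called in all 4 FB libraries at folds of 9.01 to 10.14, in 1 PFL library at 4.85 and in no DFL library. The region around that start was nevertheless deposited in all 12 libraries, with DFL folds of 5.57, 6.48, 7.09 and 5.47 and PFL folds of 4.85, 4.29, 7.07 and 6.67 at summits whose regions did not reach the start in the other 7 limb libraries. The start of Fgf8 was called in 1 DFL library at a fold of 2.81, and that of Fgf4 in 1 PFL and 2 FB libraries at 2.55 to 3.39. Fgfr4 had its start called in 2 of 4 DFL, 3 of 4 PFL and 1 of 4 FB libraries. Spry2 had no call over its start, but regions at its 5′ side were in all 12 libraries. Genes with starts rich in G and C were more often called in all 12 libraries. So called were 8.55% of genes whose 300 bases around the gene start had under 40% GC and 92.1% of those with 70% to 80%. However, Fgf8, with 83.7% GC, was nearly without calls and Fgf10, with 37.7%, was called in all 12. The GC was that of the gene start, whereas a call over any annotated start of the gene counted.

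**Figure D4:**
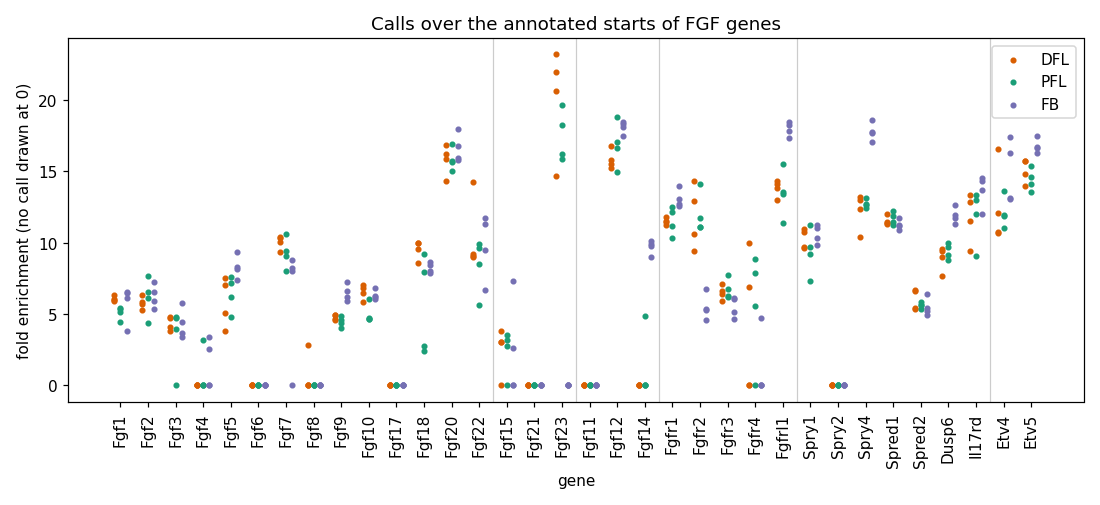
Fold over the annotated start of each FGF gene in the 12 libraries, 1 point per library coloured by tissue, with libraries without a call drawn at 0 and grey lines between roles. Fgf23 lies at 14.65 to 23.17 in limb and at 0 in FB, Fgf14 at 9.01 to 10.14 in FB, and the Fgfr2 points of FB lie below those of limb.

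Where a region was called in every library, the folds themselves could be compared. Of 28404 such regions, 128 belonged to FGF genes. Between limb and forebrain, 28 of them were higher in limb (21.9%, against 23.7% of all regions tested) and 20 were lower (15.6%, against 15.9%), by limma with Benjamini-Hochberg adjustment over all regions. The FGF share was near the background in both directions. The median difference was 0.03 on the log2 scale over FGF regions and 0.03 over all. Under quantile normalization the 28 and 20 became 23 and 23, and all regions went from 6726 higher and 4523 lower to 5244 and 5329. The lower count was 13 without wt FB replicate 1 and also without 542 FB replicate 2.

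The clearest limb difference was at an internal start of Etv4, whose factor restrains Shh at the front of the limb bud. The region over it, 12.7 kb into the gene, had FB folds of 5.37, 6.38, 6.08 and 6.92 and limb folds of 11.69 to 16.58 with a median of 13.67. The groups did not overlap, and the difference was 1.32 ± 0.10 (log2, SE, adjusted p = 1.76e-07, limma). At the gene start of Etv4 the sign was opposite, with limb folds of 10.59 to 12.84 and FB folds of 13.07 to 17.41. That difference was -0.22 ± 0.09 (adjusted p = 0.069, limma). Fgf10 followed with an intronic region 76.8 kb from the start, chr13:118746186-118746942. The DFL folds were 9.48, 9.22, 9.94 and 11.37, the PFL folds 6.60, 6.43, 5.33 and 4.39, and the FB folds 3.62, 2.84, 2.79 and 3.69. The 3 tissues were thus in separate ranges, with a limb minus FB difference of 1.40 ± 0.12 (adjusted p = 8.8e-07, limma) and a DFL minus PFL difference of 0.76 ± 0.14 (adjusted p = 0.00554, limma).

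At the start of Fgfr2 the limb folds ran from 9.40 to 14.30 with a median of 11.42, and the FB folds were 5.29, 6.72, 5.34 and 4.56. This difference was 1.30 ± 0.12 (adjusted p = 9.93e-07, limma). A region 5.8 kb beyond the start of Dusp6, the ERK phosphatase, had limb folds of 7.53 to 8.94 and FB folds of 5.23 to 6.15, with a difference of 0.74 ± 0.10 (adjusted p = 5.25e-05, limma).

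The strongest FB difference among FGF regions was 11.1 kb upstream of Fgf1, a ligand for all receptors, in an intron of Arhgap26. FB folds were 15.55, 12.25, 13.94 and 12.31 and limb folds 3.89 to 7.17, a difference of -1.28 ± 0.13 (adjusted p = 4.23e-06, limma). Near Fgf17 and Fgf22 the FB-higher regions belonged to other genes. That of Fgf17 lay over the start of Npm2, with a difference of -0.74 ± 0.07 (adjusted p = 2.6e-06, limma), and that of Fgf22 in an intron of Palm, with -0.64 ± 0.08 (adjusted p = 1.72e-05, limma).

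Single genes held regions of both directions. At Spry1, a region 27.0 kb from the start had FB folds of 10.64 to 11.54 and limb folds of 3.81 to 6.51, and was lower in limb by -1.01 ± 0.12 (adjusted p = 1.44e-05, limma). Another, 47.3 kb from the start, had FB folds of 2.91 to 4.32 and limb folds of 3.78 to 8.36 and was higher in limb by 1.00 ± 0.16. Fgfr1, a receptor of the limb mesenchyme and brain, had such a pair of neighbouring intronic regions, the second 31.4 kb from the start, with differences of 0.48 ± 0.10 and -0.90 ± 0.14. At the gene starts, Spry4 and Fgfrl1 were lower in limb, by -0.34 ± 0.06 and -0.22 ± 0.07, although Spry4 and Fgfrl1 also held limb-only regions.

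**Figure D5:**
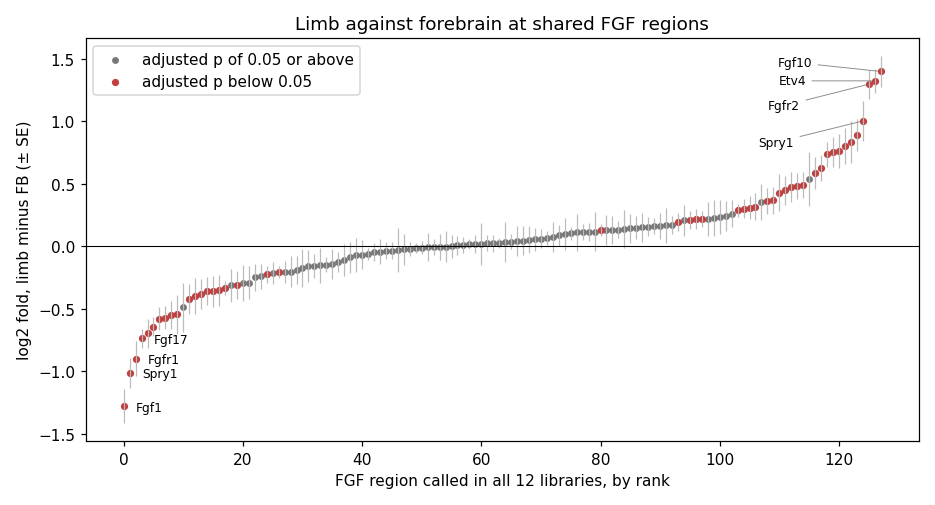
Difference of log2 fold between limb and FB for the 128 FGF regions called in all 12 libraries, in order of the difference, with SE bars and in red where the adjusted p was below 0.05. The ends are an Fgf10 region at 1.40 and an Fgf1 region at -1.28, and 28 red points lie above 0 and 20 below.

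Between DFL and PFL few FGF regions differed. In limma 2 of 128 were higher in DFL (1.56%, against 3.79% of all) and 1 was lower (0.781%, against 3.48%). Besides the Fgf10 region, the DFL-higher one lay 7.2 kb into Fgf14, with a difference of 0.37 ± 0.10 (adjusted p = 0.0445, limma), which was lost without any 1 library other than 542 PFL replicate 2 (adjusted p = 0.0588 to 0.134). The PFL-higher one was intronic in Il17rd, whose product binds FGF receptors and inhibits them. The DFL folds were 4.10, 5.43, 3.69 and 3.21, the PFL folds 5.95, 6.18, 6.14 and 5.99 and the FB folds 9.45, 8.66, 9.04 and 9.09, and DFL was lower than PFL by -0.66 ± 0.14 (adjusted p = 0.0105, limma). Leaving out 1 library gave 1 to 4 regions higher in DFL, with 4 without 542 PFL replicate 2, and 1 to 4 lower, with 4 without 542 DFL replicate 2.

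Counted per gene, more FGF genes had more regions in limb than the reverse. For every coding gene the regions in its own window were counted among the 50000 strongest, and square roots were compared with limma over 18490 genes. Of 34 FGF genes, 14 had more regions in limb (41.2%, against 17.2% of all genes) and 4 had fewer (11.8%, against 18.8%). Windows of neighbours overlap, so that Fgf6 shared regions with Fgf23, and Fgf3 and Fgf4 with Fgf15. Members higher in limb were the ligands Fgf1, Fgf2, Fgf6, Fgf10, Fgf18 and Fgf23, the receptors Fgfr2, Fgfr4 and Fgfrl1, the inhibitors Spry4, Spred1, Dusp6 and Il17rd, and Etv5. Lower in limb were Fgf14, Fgf22, Fgfr3 and Spry2.

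Fgf10 had 11.0 ± 3.56 regions in DFL, 9.50 ± 2.38 in PFL and 3.50 ± 1.29 in FB (SD, n = 4, adjusted p = 0.000168, limma). Fgfr2 had 9.0 ± 0.82 in DFL, 8.00 ± 0.82 in PFL and 5.00 ± 0.82 in FB (adjusted p = 0.0012, limma), but with the GENCODE body its difference turned to -0.32 on the square-root scale (adjusted p = 0.049, limma). Fgfr3 ran the other way, with 4.75 ± 0.96 in DFL and in PFL and 8.25 ± 0.96 in FB (adjusted p = 0.000315, limma). Spry4 had 6, 6, 6 and 6 regions in DFL, 8, 7, 8 and 8 in PFL and 3 in each FB library. Spred1, Fgfr4, Etv5, Fgf22 and Spry2 differed between limb and FB by about 1 region on average, and in an exact permutation test over the libraries their adjusted p was 0.274, 0.509, 0.236, 0.182 and 0.0719. The other 13 of the 18 passed that test, with an adjusted p of 0.0167 to 0.036. With the 20000 strongest regions 9 of the 18 calls were lost in limma. These were Fgfr2 (adjusted p = 0.4), Fgfr3 (0.877), Fgf1 (0.249), Fgf14 (0.053), Fgf22 (0.515), Fgfr4 (0.738), Spry2 (0.0513), Spred1 (1.0) and Etv5 (0.27), with Fgf1 and Spred1 turned in direction. With all deposited regions 4 were lost, of which Spry2 turned to 0.24 (adjusted p = 0.179, limma). The count of genes with fewer regions in limb was 2 without wt FB replicate 1, 542 FB replicate 1 or 542 FB replicate 2, and the call of Fgf14 was lost without any 1 of the 4 FB libraries (adjusted p = 0.0531 to 0.0543, limma).

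No FGF gene had more regions in DFL than in PFL (0 of 34, against 3.09% of all genes, limma), and 3 had fewer (8.82%, against 2.96%), namely Fgf1, Fgfr4 and Spry4, or 5 without 542 DFL replicate 1. With the 20000 strongest regions all 3 calls were lost (adjusted p = 1.0, 0.658 and 0.109 in that order, limma). With all deposited regions Fgfr4 was lost (adjusted p = 0.54) and Spry4 turned to 0.059 (adjusted p = 0.838), and within 25 kb Spry4 was lost (adjusted p = 0.569). At an unadjusted p under 0.05 the DFL-higher count was also 0. Fgf1 had 8.25 ± 0.50 regions in DFL, 13 ± 1.41 in PFL and 5.50 ± 0.58 in FB (SD, n = 4), with an adjusted p of 0.000856 for DFL against PFL (limma). With the 20000 strongest regions, the limb minus FB difference of Fgf1 turned to -0.69 with an adjusted p of 0.249 (limma).

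Few FGF regions differed between wt and 542 libraries. No FGF region was held by all 6 libraries of a genotype and by none of the other, where 0.0126% of all regions were in wt alone and 0.0153% in 542 alone. Within DFL, 7 FGF regions were in both wt and no 542 library (1.97%, against 2.55% of all), and 8 the reverse (2.25%, against 2.07%). Within PFL these were 13 (3.65%, against 2.68%) and 8 (2.25%, against 2.14%). Within FB they were 3 (0.843%, against 1.66%) and 2 (0.562%, against 1.57%). These are calls of rank among the 50000 strongest. A region 29.5 kb upstream of Etv4 was so called in wt alone in PFL and in 542 alone in FB, but was deposited in all 12 libraries, with folds of 6.48 and 6.32 in wt PFL and 4.34 and 3.80 in 542 PFL, and of 4.32 and 4.54 in wt FB and 5.07 and 5.85 in 542 FB. The strongest wt call in DFL lay over the start of Fgfr4, with folds of 6.86 and 9.98 in wt DFL, 8.88 and 7.89 in wt PFL and 5.94 and 5.59 in 542 PFL.

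At regions shared by all libraries, 2 of 128 FGF regions were higher in 542 (1.56%, against 0.415% of all, limma) and none was lower (0 of 128, against 0.261%, with 8 at an unadjusted p under 0.05). One lay 7.2 kb into Fgf14. Its folds were 9.94 and 10.52 in wt and 13.03 and 12.22 in 542 DFL, 7.08 and 6.03 in wt and 9.30 and 12.31 in 542 PFL, and 15.49 and 14.81 in wt and 17.51 and 17.78 in 542 FB. The genotypes did not overlap within any tissue, and the difference was 0.48 ± 0.09 (adjusted p = 0.0232, limma). The other lay 1.1 kb upstream of Fgf1, in an intron of Arhgap26, with a difference of 0.48 ± 0.10 (adjusted p = 0.0486, limma). When 1 library was left out in turn, the Fgf1 call was lost without any library other than 542 PFL replicate 1 (adjusted p = 0.0519 to 0.145) and the Fgf14 call was lost without 8 of the 12 libraries (adjusted p = 0.053 to 0.0801), which left 0 to 2 calls. The unadjusted p was under 0.05 for 21 of the 128 regions and for 4520 of all 28404. Tissue differences were not called different between genotypes at any of the 128 (0 in either interaction by limma, 7 and 7 at an unadjusted p under 0.05). Over all 28404 regions the calls were 0 for DFL against PFL and 2 for limb against FB. At an unadjusted p under 0.05 they were 2287 and 2252. The lack of calls is therefore not particular to FGF regions.

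Per gene, no FGF gene had more regions in 542 (0 of 34, against 1.14% of all genes, limma) and 1 had fewer (2.94%, against 0.936%). This was Fgfrl1, with 8 regions in every limb library, 6 and 6 in wt FB and 5 and 5 in 542 FB. Its replicates never differed, so that its SE was 0.01 and the call rests on 1 region in FB. It was lost with all deposited regions (adjusted p = 0.227, limma) and turned to 0.10 with the 20000 strongest (adjusted p = 0.745). At an unadjusted p under 0.05, 4 FGF genes had more and 6 had fewer, for which the shares over all genes are not given.

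Whether the tissue difference of a gene depended on the genotype was tested after its counts had been seen. The interaction of limb against FB with genotype was called for 1.61% of all genes and that of DFL against PFL for 1.23% (limma). Fgf10 had 9 and 7 regions in wt DFL and 14 and 14 in 542 DFL, 7 and 8 in wt PFL and 11 and 12 in 542 PFL, and 4 and 5 in wt FB against 2 and 3 in 542 FB. The genotypes were thus apart in opposite directions in limb and in FB, with an interaction of 1.33 ± 0.20 on the square-root scale (adjusted p = 0.0248, limma). Fgfr4 had 7 and 6 regions in wt DFL and 4 and 4 in 542 DFL, against 7 and 7 in wt PFL and 8 and 8 in 542 PFL (adjusted p = 0.0409, limma). Without 1 library the adjusted p of Fgf10 rose to at most 0.0944 and that of Fgfr4 to at most 0.111, past the threshold in 4 and 9 of 12 cases.

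The rest of the pathway was looked at in 26 further genes, of which 24 could be tested per gene. In limb 5 had more regions (20.8%, against 17.2% of all genes), among them Gab1, Kl, Klb and Spred3, and 5 had fewer (20.8%, against 18.8%), among them Braf, Dusp4, Fgfbp3 and Ptpn11. Kl and Klb, the coreceptors of endocrine ligands, had 4 to 6 and 3 to 6 regions in limb libraries and 3 to 4 in FB. Klb had fewer regions in DFL than in PFL. Of 89 shared regions of these genes, 17 were higher in limb (19.1%, against 23.7% of all) and 6 lower (6.7%, against 15.9%). In DFL 5 were higher (5.6%, against 3.79%) and 2 lower (2.2%, against 3.48%), and in 542 2 were higher (2.2%, against 0.415%) and 0 lower (against 0.261%).

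The motifs were counted in the 300 bases around each summit. Over all FGF regions, the HOX13 letters occurred in 7.58% (8.03% of all regions), TAATTA in 8.71% (13.9%), TCF/LEF in 3.93% (5.08%), ETS in 4.49% (3.31%) and the bHLH letters in 24.7% (27.2%). TAATTA was in 4 of the 6 DFL-over-PFL regions, those of Fgf7, Spry1, Fgfr2 and Il17rd, and in 0 of the 7 PFL-over-DFL regions, where the shares of all such regions were 27.3% and 4.96%. It was in 5 of 17 FB-only regions (32.5% of all such) and in 3 of 24 limb-only regions (9.59%). The HOX13 letters were in 0 of the 6 DFL regions (19.5% of all such). The match nearest the summit in each of the 4 DFL regions is printed with 15 bases on each side, in mm10 on the plus strand, with the motif in capitals, to show the letters around it. They come from chr2:126015762-126015797, chr3:37616676-37616711, chr7:130258666-130258701 and chr14:27070842-27070877.
Fgf7: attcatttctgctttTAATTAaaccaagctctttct
Spry1: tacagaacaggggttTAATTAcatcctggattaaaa
Fgfr2: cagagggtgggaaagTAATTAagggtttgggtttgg
Il17rd: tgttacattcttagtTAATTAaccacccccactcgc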

How the data were processed

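ATAC-seq peaks of 13 libraries from 3 tissues were used as deposited, 12 of them in 6 groups of 2 replicates taken from the labels. The authors trimmed reads with Cutadapt 1.16, aligned them with bowtie2 2.4.1 to mm10 or, for 542, to a mutant genome, kept concordant pairs outside the mitochondria with a mapping quality of at least 30 with bamtools 2.4.1, removed duplicates with picard 2.18.2 and converted alignments to BED with bedtools 2.30.0. Peaks were called by the authors in each library alone, without a control, with MACS2 2.1.1.20160309, each tag being shifted by 100 and extended to 200 bp. Depth was estimated from the most frequent local background, recovered from the fold and −log10 p of the summits.

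The deposited fold is a ratio of tags at a summit over the local background of the same library. The deposited −log10 q-value is that of the authors' peak caller and was used for ranking. Neither is normalized between libraries, which limits comparisons to ranks and to median-centred folds.

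Summits with equal start and end were taken as 1 region with its strongest summit. In 542, 4218 bp were subtracted from positions on chromosome 2 above 75273815. Gene bodies, starts, exons and introns came from GENCODE M21 on mm10, and the body of Fgfr2 from RefSeq GRCm38.p6. The 50000 strongest regions per library, by −log10 q and then fold, were joined into consensus regions where they overlapped by at least 1 bp. Regions deposited in all 12 libraries were compared as log2 fold, and regions per gene (50 kb on each side, a mean of at least 1) as square roots, in limma 3.58.1 (R 4.3.3) with 6 group means, trended and robust variances and Benjamini-Hochberg adjustment over all regions or genes at 0.05. Both fits were tested on simulated data. Permutation tests were exact and two-sided. Other steps ran in Python 3.11.15 with scipy 1.17.1, pandas 2.3.3, matplotlib 3.10.9 and numpy 2.4.6.

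Named were, for each call class, up to 4 FGF regions with the highest mean fold, for each direction at shared regions up to 4 with the lowest adjusted p, with no more than 2 per gene, the starts of all members, and members past the threshold per gene. Other regions that are named were chosen after their values were seen. The members and lists were chosen with earlier results of these data known. Alternatives were other rank limits, a −log10 q of at least 10, coverage of the consensus region, windows of 25 kb, a replicate block, quantile normalization, missing calls set to the lowest fold, log2 counts, an exact permutation test and libraries left out. The GENCODE body of Fgfr2 was added as an alternative after its length was seen. The labels give no shared litter or day for a replicate number, and p-values measure the spread between pools. The permutation p-values for genotype totals also take in the spread between tissues. Some genes of the marker and pathway lists and 1 sequence are not reported here.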

Additional observations from a re-analysis of the deposited data

Results flagged for a closer look

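The counts of regions per gene had tissue differences that depended on the genotype for 3 FGF genes, by an interaction term in limma that was added after the counts were seen. For Fgf10 the difference between limb and FB was larger in 542 than in wt by 1.33 ± 0.20 on the square-root scale (SE, adjusted p = 0.0248, limma), with 542 above wt in both limb parts and below wt in FB. It was lost when all deposited regions were counted (adjusted p = 0.901) and turned to -0.64 with the 20000 strongest (adjusted p = 0.861). For Fgfr4 the difference between DFL and PFL changed by -0.73 ± 0.11 (adjusted p = 0.0409, limma), and its adjusted p was 0.752 with all deposited regions. For Fgfrl1 the limb minus FB difference changed by 0.21 ± 0.01 (adjusted p = 7.96e-05, limma), which is 1 region in FB with no spread between replicates. Groups of 2 replicates were too small for a search for single libraries that stand apart.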

How the results depend on the processing

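Counts in this section are of FGF regions and genes alone, without the shares over all regions or genes. They show how the FGF counts moved with the setting and are not read as traits of FGF genes. With all deposited regions, FGF regions in DFL over PFL were 14, in DFL only 10, in wt only 35 in DFL, 37 in PFL and 19 in FB, and in 542 only 6 in FB. In DFL and PFL each wt library also had more deposited regions than each 542 library, and the part of this was not tested. With the 20000 strongest, 3 were in DFL over PFL, 3 in PFL over DFL, 2 in PFL only, 10 in limb only, 7 in FB only, 54 in all libraries, 2 and 7 in wt only in DFL and PFL, and 0 and 5 in 542 only. With a −log10 q of at least 10, 4 were in PFL over DFL, 1 in PFL only, 15, 24 and 10 in wt only in DFL, PFL and FB, and 5, 2 and 0 in 542 only. With at least 50% of the consensus region covered, 12 and 21 were in wt only in DFL and PFL, and 4 and 1 in 542 only in DFL and FB. Within 25 kb, 0 were in 542 only in FB. With the GENCODE body of Fgfr2, chosen after seeing the data, 10 were in DFL over PFL, 11 in PFL over DFL, 6 in DFL only, 11 in PFL only, 31 in FB only, 5 in 542 only in FB and 4 shared regions were lower in DFL.

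At shared regions, missing calls set to the lowest fold gave 41 higher and 50 lower in DFL, 148 higher and 109 lower in limb and 4 lower in 542. That fit also took in regions without a call in some libraries, with the filled value in its place. Its counts are therefore not comparable with the others, and shares over all regions are not given. Per gene, all deposited regions gave 2 higher in DFL, 2 lower in limb and 3 lower in 542, the 20000 strongest 1 higher and 1 lower in DFL, 0 lower in limb and 0 lower in 542, and the exact permutation test 2 lower in limb. Reversed were, on the square-root scale, Spry2 (limb minus FB, 0.24) and Spry4 (DFL minus PFL, 0.059) with all deposited regions, and with the 20000 strongest Fgf1 (limb minus FB, -0.69), Spred1 (limb minus FB, -0.016), Fgfrl1 (542 minus wt, 0.10, and its interaction, -0.023) and the interaction of Fgf10 (-0.64), and with the GENCODE body Fgfr2 (limb minus FB, -0.32). Where no cause is given, the cause was not tested.

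The replicate block gave 1 region higher and 2 lower in DFL and 1 higher in 542 at shared regions. Deviations of same-numbered libraries correlated at -0.04 to 0.02 over 15 pairs of groups, so that no shared deviation was seen. Whether same-numbered pools shared embryos, litter or day cannot be told from this.

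With 1 replicate number alone, counts were 14 to 15 in DFL over PFL, 17 to 24 in PFL over DFL, 8 to 12 in DFL only, 15 to 19 in PFL only, 27 to 35 in limb only, 22 to 23 in FB only, 30 to 35, 33 to 34 and 14 to 20 in wt only in DFL, PFL and FB, 24 to 37, 34 to 36 and 16 to 19 in 542 only, and 0 to 1 in 542 only in all tissues. Leaving out 1 library gave, at shared regions, 1 to 4 higher and 1 to 4 lower in DFL, 19 to 29 higher and 13 to 21 lower in limb and 0 to 2 higher in 542. Per gene it gave 3 to 5 lower in DFL, 12 to 15 higher and 2 to 4 lower in limb and 0 to 1 higher in 542.

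Folds are ratios within a library and a region without a call has no value. A call depends on depth and rank, so that its absence is not closed chromatin. Assignment to the nearest member says nothing of the gene a region acts on.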

Other observations

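Over all FGF regions the 300 bases around the summit had a median GC content of 51.3%, against 47.3% over all consensus regions. The 17 FB-only FGF regions had a median of 42.7%, the 24 limb-only regions 49.3% and the 94 regions of all libraries 62.5%, against 45.0%, 46.7% and 60.7% over all regions of these classes. Of the 356 FGF regions, 42 lay over starts of genes other than the member they went to and 37 over a start of the member itself, while 113 were intergenic and 92 were in an intron of the member. The earlier wt DFL library held 456 FGF regions in all and 207 among its 50000 strongest, where the 4 grouped DFL libraries held 194 to 206.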
